A study of Mus musculus with 7 samples.

Results

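The genes described here are the neutrophil-attracting CXC chemokines and the colony-stimulating factors with their receptors in mouse spleen after lipopolysaccharide (LPS), a bacterial cell wall component. The set was defined by gene symbol, with earlier results of these data known. It holds the chemokines Cxcl1, Cxcl2, Cxcl3 and Cxcl5, the growth factors Csf1, Csf2 and Csf3, and the receptors Csf1r, Csf3r and Csf2rb. These are 10 of the 17920 genes in the deposited expression table. All 10 passed the filter on low values used for testing, a mean of at least 1 FPKM over the libraries, although Cxcl3, Csf2 and Csf3 were below 1 FPKM in 2, 3 and 1 libraries. FPKM counts sequenced fragments per kilobase of transcript and per fixed number of fragments in the library, so levels of different genes can be compared.

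The study asked how loss of GdX (also called UBL4A, a small ubiquitin-like protein encoded by the X-linked gene Ubl4a) changes gene expression in the spleen after LPS. All mice were labelled C57BL/6 and 8 weeks old, and all had received LPS at 20 mg/kg body weight into the peritoneum. Spleens were taken 90 min later (2 wild-type and 2 GdX-deficient libraries) or 6 h later (2 wild-type libraries and a single GdX-deficient one). The deficient animals are labelled GdX-/- by sample and GdX-/Y in the series title, so the gene is missing in every cell and not in 1 cell type. RNA came from mashed whole spleen, although the sample source reads splenocytes. No spleen without LPS was analysed here, so no level can be set against one before LPS. The design text counts 4 wild-type and 3 deficient mice, and nothing further describes how replicates were raised or handled. In bulk tissue, fewer cells of a type and less RNA per cell cannot be told apart.

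CXCL1, CXCL2, CXCL3 and CXCL5 are secreted chemokines that bind the receptor CXCR2 on neutrophils and draw them out of the blood. Macrophages, endothelial cells and fibroblasts make them within a short time of LPS, largely through the transcription factor NF-kB, and their mRNAs carry AU-rich elements that make them short-lived. G-CSF (Csf3) acts on its receptor CSF3R to drive the production and release of neutrophils from the marrow. GM-CSF (Csf2) signals through CSF2RA paired with the shared beta chain CSF2RB, and M-CSF (Csf1) signals through CSF1R to maintain macrophages, including those of the splenic red pulp.

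The 4 chemokine genes lie in a cluster on chromosome 5, in the order Cxcl5, Ppbp, Pf4, Cxcl3, Cxcl15, Cxcl1 and Cxcl2 by their starts in RefSeq on GRCm38.p6. RefSeq promoter sequences of that build were found for 6 of the 10 members. The sequences of Cxcl1, Cxcl2 and Cxcl3 are shown because these neighbours hold an identical NF-kB site close to their starts, and that of Csf1 because its site reads differently. Csf1 was picked with its levels known, and no link between site and level was tested. Each line gives the 160 bases before the start site, 5′ to 3′ on the gene's strand, with matches to the NF-kB consensus and to TATAAA in capitals. The windows are chr5:90891085-90891244 (plus strand) for Cxcl1, chr5:90903739-90903898 (plus) for Cxcl2, chr5:90785941-90786100 (plus) for Cxcl3 and chr3:107760470-107760629 (minus) for Csf1.
Cxcl1: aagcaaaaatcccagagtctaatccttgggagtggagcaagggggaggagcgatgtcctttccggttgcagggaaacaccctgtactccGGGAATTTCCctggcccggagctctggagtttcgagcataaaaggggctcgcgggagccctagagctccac
Cxcl2: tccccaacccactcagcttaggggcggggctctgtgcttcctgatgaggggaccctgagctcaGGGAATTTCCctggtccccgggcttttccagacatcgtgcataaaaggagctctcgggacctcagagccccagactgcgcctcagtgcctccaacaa
Cxcl3: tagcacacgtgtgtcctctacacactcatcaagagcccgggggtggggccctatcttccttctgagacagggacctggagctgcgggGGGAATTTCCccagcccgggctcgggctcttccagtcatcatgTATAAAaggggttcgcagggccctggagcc
Csf1: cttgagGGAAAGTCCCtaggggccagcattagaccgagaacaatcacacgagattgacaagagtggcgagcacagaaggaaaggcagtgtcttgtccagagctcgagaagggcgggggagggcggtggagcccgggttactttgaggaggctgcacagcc

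The NF-kB match began 71 bases before the start in Cxcl1, 97 in Cxcl2 and 73 in Cxcl3, each time as GGGAATTTCC on the gene's own strand. Csf1 held GGGACTTTCC on the opposite strand, beginning 154 bases before its start, and the longer window of Csf3r held GGGACCTTCC on the opposite strand at 129 bases. The longer window of Csf2 held no match to any motif searched. The NF-kB consensus was searched on both strands and was present in 1907 of 32851 mouse promoters of the same 300 bases (250 before and 50 after the start), or 5.80%. TATAAA, searched likewise, was present in 13.6% of them, and among the 6 members in that of Cxcl3. The CK-1 core GAGATTCC (0.904% of promoters), the AP-1 motif TGANTCA (7.81%) and the PU.1 motif GAGGAAGT (3.20%) had no match in the 6 windows. These matches describe sequence and are not evidence of binding in these spleens.

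Ubl4a itself was listed at 5.62 and 7.50 FPKM in wild type and 4.03 and 5.69 FPKM in GdX-deficient spleen at 90 min, and at 11.9 and 14.0 FPKM against 10.6 FPKM at 6 h. Gm44504, an entry overlapping Ubl4a on chromosome X, was listed at 15.4, 14.5, 51.1 and 24.0 FPKM in wild type and 1.01, 1.86 and 0.66 FPKM in the deficient libraries. The sum of both was lower in the deficient libraries at each time, and the division of fragments between overlapping entries is uncertain. The beta-globin entry Hbb-b1 differed by 11.69 on the log2 scale between the genotypes at 90 min, and whether they differ in genetic background outside Ubl4a was not tested. Low FPKM values step by 1 fragment, which put the depth at an estimated 18600000 to 20700000 fragments per library. B cell markers were present in every library, as in spleen.

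The libraries of a group were not equally alike. At 90 min, replicate 1 of the GdX-deficient group differed less from wild-type replicate 2 (SD over genes of the log2 difference 0.336) than the wild-type replicates did from each other (0.373). Replicate 2 differed from its own partner with an SD of 0.509 and was nearest to the 6 h GdX-deficient library (0.468). For 8 of the 10 members, its level lay between those of replicate 1 and the 6 h library, as it did for 49.5% of all 11378 genes tested. Nothing in the labels accounts for this. The summed Ubl4a and Gm44504 level was 5.04 and 7.55 FPKM in the deficient pair and 21.0 and 22.0 FPKM in wild type at 90 min, so both stood with their genotype label, while an error in a recorded time was not tested. The members' differences at 90 min are therefore given with and without replicate 2, and those of other gene lists with all libraries. Every value at 6 h in GdX-deficient mice rests on 1 library, which the tests assume to vary like the libraries of the other groups.

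Cxcl1 was the most abundant member in wild-type spleen at 90 min and stood lower in every GdX-deficient library than in the wild-type libraries of its time. It stood at 513 and 359 FPKM in wild type and at 182 and 27.1 FPKM in GdX-deficient spleen at 90 min. At 6 h it stood at 66.2 and 42.7 FPKM in wild type and 4.44 FPKM in the GdX-deficient library. The 90 min groups did not overlap, and the lower of the deficient pair was also below both wild-type libraries at 6 h. The mean was 436 ± 109 FPKM (SD, n = 2) in wild type and 105 ± 110 FPKM (SD, n = 2) in deficient spleen at 90 min, a 4.17-fold difference, and the SD of the deficient pair exceeded its mean. On the log2(FPKM + 1) scale the difference was -2.59 at 90 min (SE 0.69, limma adjusted p = 0.520) and -3.32 at 6 h (SE 0.85, limma adjusted p = 0.0573), so neither passed the threshold of 0.05.

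Cxcl2 is a chemokine that macrophages and neutrophils make. Its levels were 183 and 158 FPKM in wild type and 114 and 16.4 FPKM in GdX-deficient spleen at 90 min, and 43.0 and 46.55 FPKM against 11.3 FPKM at 6 h. Both deficient libraries were below both wild-type libraries at 90 min, and the deficient library was the lowest at 6 h. On the log2 scale the genotypes differed by -1.94 at 90 min (SE 0.67, limma adjusted p = 0.603) and -1.89 at 6 h (SE 0.83, limma adjusted p = 0.169).

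Cxcl5, a chemokine typical of stromal and epithelial cells and platelets, stood at 46.4 and 39.4 FPKM in wild type and 31.8 and 9.72 FPKM in GdX-deficient spleen at 90 min. At 6 h it stood at 11 and 7.15 FPKM against 3.26 FPKM. No deficient library reached the lower wild-type library of its time. In log2 units the difference was -1.22 at 90 min (SE 0.47, limma adjusted p = 0.621) and -1.22 at 6 h (SE 0.58, limma adjusted p = 0.202).

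Cxcl3 was the scarcest of the 4 chemokine members. It stood at 3.14 and 3.61 FPKM in wild type and 3.36 and 0.32 FPKM in GdX-deficient spleen at 90 min, and at 1.72 and 3.68 FPKM against 0.33 FPKM at 6 h. Deficient replicate 1 lay between the wild-type libraries, so the groups overlapped at 90 min. The low values rest on an estimated 6.03 and 6.54 fragments, against 36.1 to 76.3 fragments in the other libraries. Its log2 difference was -0.86 at 90 min (limma adjusted p = 0.626) and -1.42 at 6 h (limma adjusted p = 0.165).

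**Figure D1:**
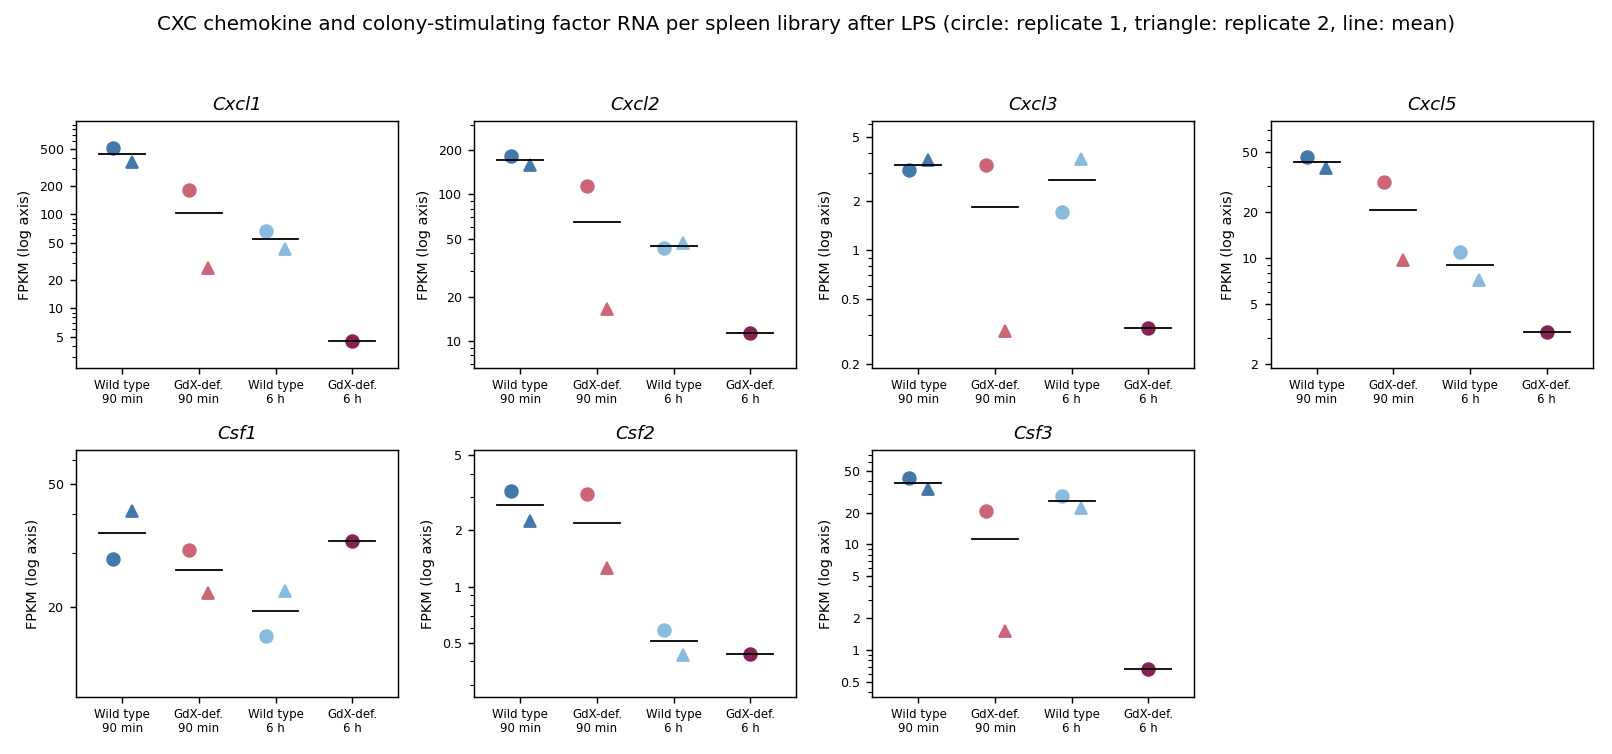
FPKM of the 7 ligand genes on log axes in each spleen library, by genotype (GdX-def., GdX-deficient) and time after LPS; circles are replicate 1, triangles replicate 2 and lines the group mean. Cxcl1, Cxcl2, Cxcl5 and Csf3 are lower in every GdX-deficient library than in the wild-type libraries of the same time, and the 90 min GdX-deficient pair is widely spread.

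Csf3, which encodes G-CSF, separated the genotypes most at 6 h. It stood at 42.2 and 33.5 FPKM in wild type and 20.9 and 1.52 FPKM in GdX-deficient spleen at 90 min. At 6 h both wild-type libraries still held 29.0 and 22.3 FPKM, whereas the deficient library held 0.67 FPKM, an estimated 18.5 fragments. The mean in wild type at 6 h was 38.3-fold the level of the deficient library. For Csf3 the log2 difference was -2.38 at 90 min (SE 0.78, limma adjusted p = 0.573) and -3.99 at 6 h (SE 0.95, limma adjusted p = 0.0511), just short of the threshold.

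Csf1 and Csf2 did not follow this course. Csf1, the macrophage growth factor M-CSF, stood at 28.6 and 41.0 FPKM in wild type and 30.5 and 22.1 FPKM in GdX-deficient spleen at 90 min, where the groups overlapped. At 6 h the deficient library, at 32.6 FPKM, was above both wild-type libraries, at 16.1 and 22.6 FPKM. Its log2 difference between genotypes was -0.39 at 90 min (limma adjusted p = 0.658) and 0.74 at 6 h (limma adjusted p = 0.226).

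Csf2, which encodes GM-CSF, was low throughout, at 3.21 and 2.24 FPKM in wild type and 3.12 and 1.25 FPKM in deficient spleen at 90 min. At 6 h its levels of 0.59 and 0.43 FPKM in wild type and 0.44 FPKM in the deficient library rested on an estimated 6.86 to 9.75 fragments. The genotypes overlapped at both times, with log2 differences of -0.28 (SE 0.32) and -0.07 (SE 0.39).

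Of the 3 receptor genes among the members, Csf3r alone stood apart between genotypes at 90 min. Csf3r, the G-CSF receptor of neutrophils and their precursors, stood at 10.03 and 15.9 FPKM in wild type and 20.8 and 55.6 FPKM in GdX-deficient spleen at 90 min. At 6 h it stood at 14.1 and 23.1 FPKM against 86.9 FPKM. The deficient libraries were higher at both times with no overlap, and the 6 h library held 4.67 times the wild-type mean. Csf3r differed by a log2 value of 1.36 at 90 min (SE 0.45, limma adjusted p = 0.573) and 2.21 at 6 h (SE 0.56, limma adjusted p = 0.0567).

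Csf2rb, the beta chain shared by the receptors for GM-CSF, IL-3 and IL-5, stood at 10.02 and 16.2 FPKM in wild type and 15.4 and 28.6 FPKM in deficient spleen at 90 min. At 6 h it stood at 17.3 and 32.2 FPKM against 42.6 FPKM. The genotypes overlapped at 90 min, and the deficient library was the highest at 6 h. The log2 difference was 0.68 (SE 0.40, limma adjusted p = 0.629) at 90 min and 0.82 (SE 0.49, limma adjusted p = 0.296) at 6 h. Its neighbour on chromosome 15, Csf2rb2, is a near copy, and fragments may be split uncertainly between the pair. Csf2rb2 was listed at 3.19 and 8.30 FPKM in wild type and 7.28 and 8.76 FPKM in deficient spleen at 90 min, and at 1.59 and 6.72 against 9.99 FPKM at 6 h.

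Csf1r, the M-CSF receptor of monocytes and macrophages, overlapped between genotypes at 90 min, with 41.05 and 72.0 FPKM in wild type and 60.3 and 51.8 FPKM in deficient spleen. At 6 h it stood at 11.8 and 26.4 FPKM in wild type and 46.5 FPKM in the deficient library, which was above both. The log2 difference was 0.04 at 90 min (SE 0.40), with overlapping libraries, and 1.34 at 6 h (SE 0.48, limma adjusted p = 0.118).

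**Figure D2:**
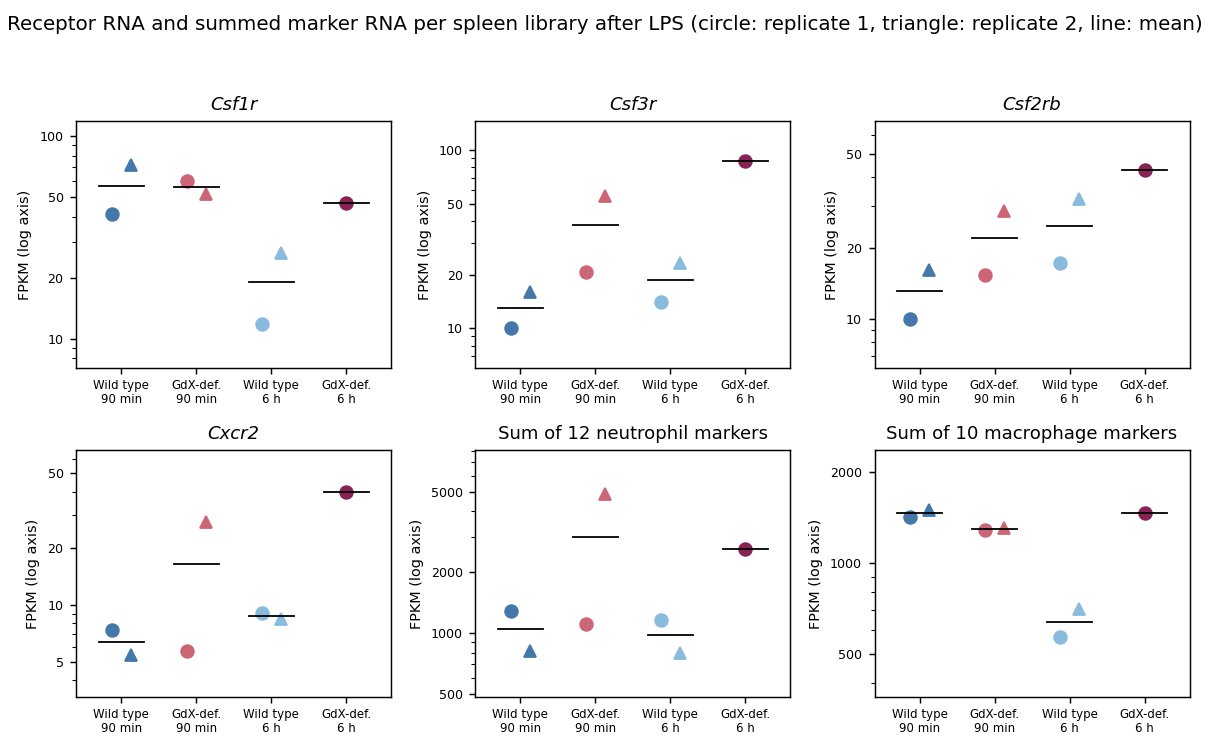
FPKM on log axes of the receptor genes Csf1r, Csf3r, Csf2rb and Cxcr2 and of summed neutrophil and macrophage or monocyte marker genes in each library, by genotype and time; circles are replicate 1, triangles replicate 2 and lines the mean. Csf3r, Cxcr2 and the neutrophil sum are highest in replicate 2 of the 90 min GdX-deficient group and in the 6 h GdX-deficient library, and Csf1r and the macrophage sum are low in wild type at 6 h.

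At 90 min, 0 of the 10 members passed the limma threshold between genotypes, where 0.0176% of all genes tested did. Before adjustment, 5 members and 862 of the 11378 genes had a p under 0.05. In both deficient libraries Cxcl1, Cxcl2, Cxcl5 and Csf3 were lower than in both wild-type libraries, a pattern that 23.4% of all genes had. Csf3r was higher in both, as were 24.1% of all genes. The median log2 difference of the 7 ligands was -1.22 and that of the 3 receptors 0.68, against 0.07 for all genes.

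The size of these differences depended on deficient replicate 2. Between replicates 1 and 2 of the deficient group, Csf3 differed 13.75-fold, Cxcl2 6.96-fold, Cxcl1 6.72-fold and Cxcl5 3.27-fold, all higher in replicate 1, as was Cxcl3. Without replicate 2, the log2 difference was -1.23 for Cxcl1, -0.57 for Cxcl2, -0.0029 for Cxcl3, -0.42 for Cxcl5, -0.82 for Csf3 and 0.67 for Csf3r, with no limma call. It was then -0.16 for Csf1, 0.15 for Csf1r and 0.25 for Csf2rb. Csf2 then turned from -0.28 to 0.16. Without replicate 1, the difference was -3.94 for Cxcl1 (limma adjusted p = 0.0347), -3.30 for Cxcl2 (0.0279) and -3.94 for Csf3 (0.0294), and these 3 members passed, where 0.114% of all genes did. Fitted on the 4 libraries at 90 min alone, limma called Cxcl1 (adjusted p = 0.00245), Csf3 (0.0166), Cxcl2 (0.0259) and Csf3r (0.0449) among 181 genes, or 1.59% of those tested. The same 4 members passed when wild-type replicate 1 or 2 at 6 h was left out, where 1.52% and 1.61% of all genes did, and Cxcl1 passed without replicate 2 of wild type at 90 min (0.369% of all genes).

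**Figure D3:**
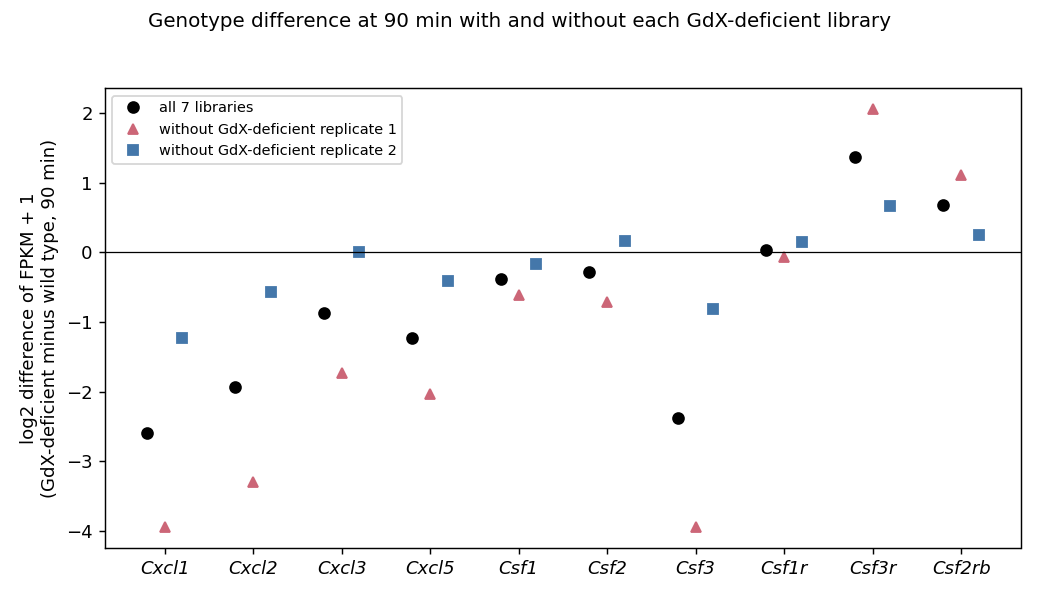
Log2 difference of FPKM + 1 between GdX-deficient and wild-type spleen at 90 min for each member (vertical axis), with all 7 libraries (circles), without GdX-deficient replicate 1 (triangles) and without replicate 2 (squares). The differences of Cxcl1, Cxcl2 and Csf3 run from -3.94, -3.30 and -3.94 without replicate 1 to -1.23, -0.57 and -0.82 without replicate 2.

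At 6 h, 0 members passed between genotypes, where 3.96% of all genes did. Before adjustment, 6 members and 3233 genes had a p under 0.05. The deficient library lay below both wild-type libraries for all 4 chemokines and Csf3, as it did for 25.3% of all genes. It lay above both for Csf1, Csf1r, Csf3r and Csf2rb, as it did for 54.9% of all genes, so being higher was the more common state. The median log2 difference of all genes was 0.32 at this time, and quantile normalization brought it to -0.02. All 10 members kept their direction under it, while Csf2 turned to 0.026 with a common sum without globin genes. Leaving out any of the 4 libraries at 90 min, which enter this comparison only through the estimate of spread, made Cxcl1, Cxcl2, Csf3 and Csf3r pass, and 5.51% to 7.37% of all genes. Leaving out a wild-type library at 6 h sets 1 library against 1, with the spread taken from the 90 min groups only. Without replicate 1, Cxcl1, Cxcl3, Csf3 and Csf3r passed with 6.16% of all genes, and without replicate 2, 7 members passed with 26.7% of all genes. With the replicate number as a block, 7 members passed with 29.7% of all genes.

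Both times were then joined in a fit with time as a covariate, which uses 3 deficient and 4 wild-type libraries. Again 0 members passed, where 0.0439% of all genes did. Before adjustment, 7 members and 3071 genes had a p under 0.05. The log2 differences were -2.88 for Cxcl1 (SE 0.52, limma adjusted p = 0.0915), -3.02 for Csf3 (SE 0.61, adjusted p = 0.0961) and 1.70 for Csf3r (SE 0.36, adjusted p = 0.0991). They were -1.92 for Cxcl2 (adjusted p = 0.101) and -1.22 for Cxcl5 (0.106). Without deficient replicate 1 at 90 min, 6 members passed (the 4 chemokines, Csf3 and Csf3r), as did 14.7% of all genes, and without wild-type replicate 2 at 90 min 3 members and 2.13% of all genes did. Whether the genotype difference changed with time was tested as an interaction, in which 0 members passed and 0.0703% of all genes did, with 1 member and 1136 genes at an unadjusted p under 0.05. Csf1 came closest by p, with 1.13 (SE 0.49, unadjusted p = 0.0442, limma adjusted p = 0.480).

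Transcript length moved with these results. The ligands other than Csf1 have a median listed transcript length of 800 to 1575 bases, while Csf1 and the receptors have 3058 to 4764 bases. Over 11180 genes, the genotype difference was larger for longer transcripts (Spearman's rho 0.427 at 90 min and 0.316 at 6 h, across genes that are not independent). Among other genes in the shorter range the median difference was -0.22 at 90 min, and among those in the longer range it was 0.18. After removal of this trend in each library, the 90 min difference was -2.33 for Cxcl1, -1.72 for Cxcl2, -2.24 for Csf3 and 1.20 for Csf3r, each in its former direction and with no call. At 6 h, the difference for Csf3r was then 1.80. Replicates of wild type also differed with length (rho -0.445 at 90 min and -0.589 at 6 h for replicate 1 minus replicate 2).

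Between 90 min and 6 h in wild type, 4 of 10 members fell, where 10.7% of all genes passed the limma test in either direction. Cxcl1 went from a mean of 436 to 54.4 FPKM and fell by 2.99 in log2 units (SE 0.69, limma adjusted p = 0.0269). Cxcl5 fell by 2.15 (SE 0.47, limma adjusted p = 0.0228), Csf1r by 1.56 (SE 0.40, adjusted p = 0.0371) and Csf2 by 1.29 (SE 0.32, adjusted p = 0.0345). Csf2 averaged 2.725 FPKM at 90 min and 0.51 FPKM at 6 h in wild type, so it passed the filter on low values through 90 min libraries. Its wild-type 6 h levels rested on an estimated 9.75 and 7.02 fragments. With 0.1 added to FPKM in place of 1, its log2 difference was -2.20. In Cxcl1, Cxcl5, Csf1r and Csf2 both libraries at 6 h were below both at 90 min. Cxcl2 (-1.90, limma adjusted p = 0.101), Csf1 (-0.81, adjusted p = 0.119) and Csf3 (-0.55, adjusted p = 0.693) also had lower libraries without overlap but did not pass. Such a pattern, all 6 h libraries lower, held for 27.6% of all genes. Csf2rb was higher at 6 h without overlap (0.84, limma adjusted p = 0.202), as were 30.3% of all genes. Markers of several cell types fell over the same interval: 2 of 6 for B cells, 4 of 5 for T cells, 4 of 4 for erythroid cells and 4 of 11 for stromal and endothelial cells passed in limma. Their part in the members' values was not tested.

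In wild type the mean of Csf3 at 90 min was 1.48-fold that at 6 h, against 8.01-fold for Cxcl1, 4.73-fold for Cxcl5 and 3.81-fold for Cxcl2, differences between genes that were not tested. The ratio of Csf3 to Cxcl1 was 0.0822 and 0.0934 at 90 min and 0.438 and 0.523 at 6 h in wild type, and 0.115, 0.0562 and 0.151 in the deficient libraries. With no filter on low values none of the 4 members passed, and with quantile normalization Cxcl1 and Csf1r did. Csf1r also lost its call without either deficient library at 90 min, without wild-type replicate 1 at 6 h or replicate 2 at 90 min, with a common sum without globin genes and in a fit of the 4 wild-type libraries alone (limma adjusted p from 0.0559 to 0.158). Cxcl2 passed in that fit (limma adjusted p = 0.0117), without either deficient library at 90 min, without either wild-type library at 6 h and without wild-type replicate 2 at 90 min (limma adjusted p from 0.0117 to 0.0407). Csf2 lost its call without wild-type replicate 1 at 90 min (adjusted p = 0.125), and 6 members passed without wild-type replicate 2 at 6 h, where 15.6% of all genes did.

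In GdX-deficient spleen, 0 members passed between 90 min and 6 h, and 0% of all genes did, with 910 genes and 6 members at an unadjusted p under 0.05. The 6 h library was lower than both at 90 min for Cxcl1, Cxcl2, Cxcl5, Csf2, Csf3 and Csf1r, as it was for 15.8% of all genes. It was higher than both for Csf1, Csf3r and Csf2rb, as it was for 56.8% of all genes. The log2 difference was -3.72 for Cxcl1 (SE 0.85, limma adjusted p = 0.165), -2.14 for Cxcl5 (adjusted p = 0.261) and -2.15 for Csf3 (adjusted p = 0.620). These sizes depended on the 90 min library used: without replicate 1 they were -2.37 for Cxcl1, -1.33 for Cxcl5, -0.50 for Cxcl2 and -0.59 for Csf3, and without replicate 2 -5.07, -2.94, -3.23 and -3.71. Either choice sets 1 deficient library against 1, with the spread taken from the wild-type groups only. In that setting Cxcl1 passed without replicate 2 (limma adjusted p = 0.0492, 0.0615% of all genes) and not without replicate 1 (0.326). It also passed without any 1 of the 4 wild-type libraries, which enter only through the estimate of spread (limma adjusted p from 0.000195 to 0.000792, 0.527% to 2.07% of all genes). Cxcl5 passed without either wild-type library at 6 h (limma adjusted p = 0.00849 and 0.00673).

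**Figure D4:**
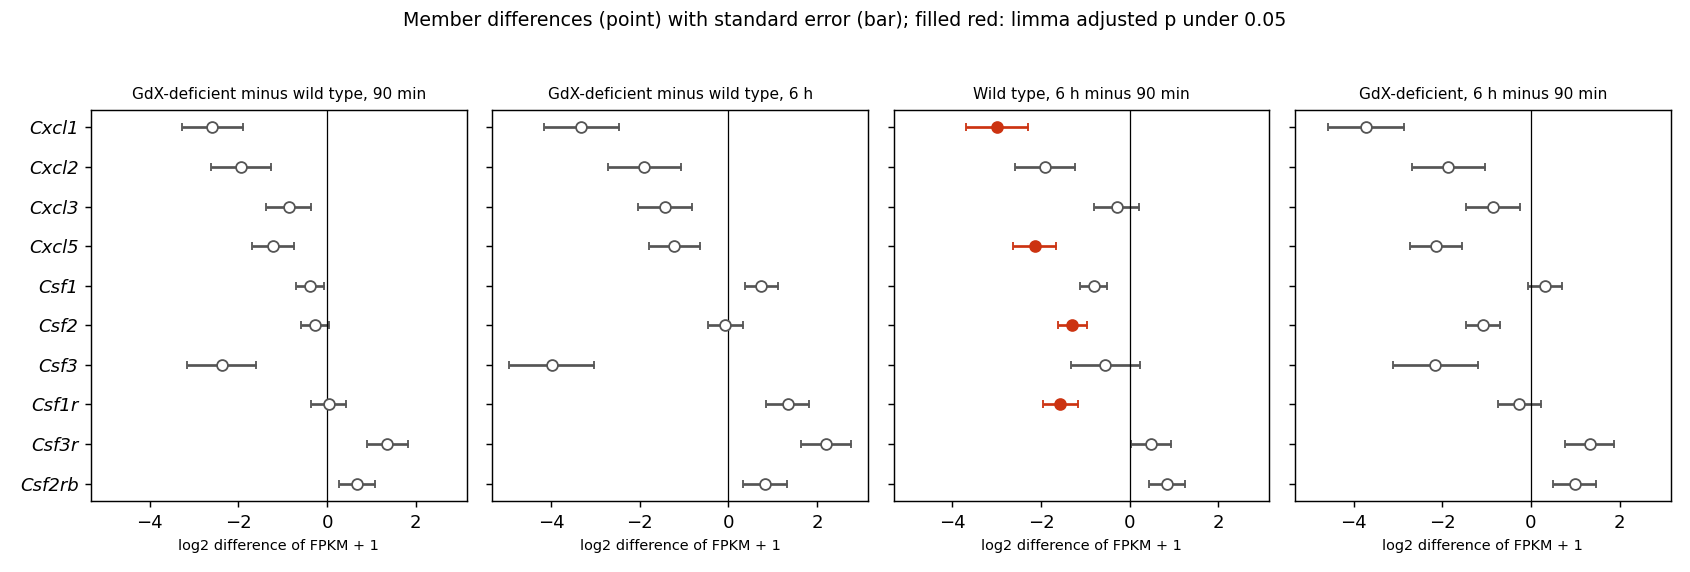
Log2 difference of FPKM + 1 for each member (points) with its standard error (bars) in 4 comparisons; filled red points passed a limma adjusted p under 0.05. The points that passed are Cxcl1, Cxcl5, Csf2 and Csf1r in wild type between 90 min and 6 h, all lower at 6 h, and the 6 h GdX-deficient values rest on 1 library.

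Other genes of CXC chemokine signalling gave no call between genotypes: 0 of 10 tested genes of 12 listed passed in limma at either time. At an unadjusted p under 0.05 were 4 genes at 90 min, all lower in deficient spleen, and 7 at 6 h, all higher. Cxcr2, the receptor for the CXC members, stood at 7.33 and 5.41 FPKM in wild type and 5.68 and 27.5 FPKM in deficient spleen at 90 min, and at 9.10 and 8.40 against 40.1 FPKM at 6 h. The high levels were in deficient replicate 2 and the 6 h library, the same libraries in which Csf3r was highest. Cxcr4, which binds CXCL12 and holds neutrophils in the marrow, stood at 20.8 and 16.1 FPKM in wild type, 18.75 and 125.5 FPKM in deficient spleen at 90 min, 26.7 and 25.4 FPKM in wild type at 6 h and 146 FPKM in the deficient library. Ppbp, a platelet chemokine gene between Cxcl5 and Cxcl3 in the cluster, was higher in that library than in wild type at 6 h (72.2 FPKM against 34.0 and 43.3 FPKM). Its neighbour Pf4 stood at 58.65 FPKM there, between the wild-type libraries at 80.3 and 39.9 FPKM. At 90 min Ppbp stood lower in deficient spleen without overlap (47.8 and 49.5 FPKM against 71.4 and 72.8 FPKM in wild type). So did Pf4 (41.55 and 34.95 against 91.4 and 71.4 FPKM) and Cxcl12 (54.6 and 51.7 against 120 and 111 FPKM). Over time in wild type, Cxcl12 (-1.11), Ackr1 (-1.11) and Ppbp (-0.89) fell, with limma adjusted p of 0.0207, 0.0387 and 0.0487. The list's median at 6 h between genotypes was 1.14, against 0.32 for all genes.

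Of 11 further genes of the colony-stimulating factor and haematopoietic growth factor family, 9 were tested. At 6 h, Kitl (stem cell factor, log2 difference 1.72, limma adjusted p = 0.0382) and Flt3l (the ligand of FLT3, 1.59, adjusted p = 0.0436) were higher in the deficient library. Both fell with time in wild type, by 1.70 (limma adjusted p = 0.00995) and 1.75 (adjusted p = 0.00856). Il34, the other ligand of CSF1R, stood at 7.40 and 7.70 FPKM in wild type and 4.05 and 2.18 FPKM in deficient spleen at 90 min, and at 6.60 and 4.97 against 7.73 FPKM at 6 h. Csf2ra, the partner of Csf2rb, stood at 14.7 and 25.8 FPKM in wild type and 31.0 and 40.5 FPKM in deficient spleen at 90 min, and at 7.30 and 24.7 against 35.8 FPKM at 6 h.

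Among 14 tested genes of signalling downstream of these receptors, 0 passed in limma between genotypes at either time, with 1 at an unadjusted p under 0.05 at 90 min and 2 at 6 h. Socs3, the feedback inhibitor that G-CSF and IL-6 induce through STAT3, fell with time in wild type by 1.76 (limma adjusted p = 0.0387). A further list covered genes around the induction and turnover of chemokine mRNAs, activators and inhibitors alike. Of its 20 tested genes, 17 were lower in deficient spleen at 90 min, 0 with a limma call and 4 with an unadjusted p under 0.05. Their median was -0.48, against 0.07 for all genes, of which 4948 of 11378 were lower. The mean log2(FPKM + 1) over all 22 listed genes was 5.38 and 5.61 in wild type, 5.43 in deficient replicate 1, inside that range, and 4.73 in replicate 2. Tlr4, the LPS receptor, was higher at 6 h (1.63, limma adjusted p = 0.0481). Over time in wild type 6 of the 20 fell: Il1b (-1.84), Zfp36 (-1.71), Fos (-1.81), Egr1 (-2.12), Cd14 (-1.06) and Nfkbiz (-1.98), with limma adjusted p from 0.0175 to 0.0499. Zfp36 encodes tristetraprolin, which binds AU-rich elements and destabilises such mRNAs.

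Cell type markers moved with several of these values. The sum over 12 neutrophil markers, which include Cxcr2, was 1287 and 814 FPKM in wild type and 1116 and 4887 FPKM in deficient spleen at 90 min, and 1163 and 797 against 2607 FPKM at 6 h. It was high in the same deficient libraries as Csf3r, but deficient replicate 1 lay within the wild-type range. S100a8 and S100a9 made up most of it, at 1935 and 2118 FPKM in deficient replicate 2. Of the 12 markers, 9 had a higher mean log2 level in deficient spleen at 90 min and 10 at 6 h. The granule protein gene Camp stood at -0.63 and -0.76, and Elane and Mpo at -0.36 and -0.34 at 90 min and Ngp at -0.32 at 6 h. Csf3r per S100a8, an abundant neutrophil transcript, ranged from 0.0229 to 0.0711 over the libraries and did not separate the genotypes at 90 min (0.0229 and 0.0545 in wild type, 0.0472 and 0.0287 in deficient spleen). The 6 h values were 0.0296 and 0.0657 in wild type and 0.0711 in the deficient library, and per S100a9 0.0271 and 0.0714 against 0.0788. Csf3r per Cxcr2 was 1.55 and 2.75 in wild type at 6 h and 2.17 in the deficient library, inside the wild-type range. At 90 min this ratio was 1.37 and 2.95 in wild type and 3.655 and 2.02 in deficient spleen, with replicate 1 above both wild-type libraries. None of the 12 markers was at 0 in any library. In limma 0 passed between genotypes, with 3 at an unadjusted p under 0.05 at 90 min and 2 at 6 h. The part of neutrophil content in the Csf3r values was not tested.

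The sum over 11 stromal and endothelial markers was 251 and 219 FPKM in wild type and 133 and 95.8 FPKM in deficient spleen at 90 min. Of the 11, 10 had a lower mean in deficient spleen at 90 min. At 6 h the sum was 115 and 120.5 FPKM in wild type and 189 FPKM in the deficient library. None of these 11 was at 0 in any library, and in limma 0 passed between genotypes, with 5 at an unadjusted p under 0.05 at 90 min and 6 at 6 h. The sum over 10 macrophage and monocyte markers was 1419 and 1503.5 FPKM in wild type and 1286 and 1305 FPKM in deficient spleen at 90 min, and 568 and 706 against 1462 FPKM at 6 h. In wild type 5 of the 10 fell with time, as Csf1r did. At 6 h Adgre1, Slc40a1 and Ly6c2 were higher in the deficient library (limma adjusted p = 0.0463, 0.0145 and 0.0437), and Csf1r per Cd68 was 0.549 and 0.840 in wild type and 0.841 in that library. Csf1r per Adgre1 was 1.36 and 1.73 in wild type and 1.10 in that library. What stromal, endothelial, macrophage and monocyte content contributed to the members' values was not tested.

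Lymphoid and erythroid markers moved too. B cell markers summed over 6 genes to 1489 and 1426 FPKM in wild type and 1241 and 2086 FPKM in deficient spleen at 90 min, and to 412 and 516 against 1785 FPKM at 6 h. The sum over 5 T cell markers was 248 and 235 FPKM in wild type and 199 and 266 FPKM in deficient spleen at 90 min, and 93.5 and 99.2 against 220 FPKM at 6 h. For 4 erythroid markers it was 491 and 553 FPKM in wild type and 1136 and 922 FPKM in deficient spleen at 90 min, and 162 and 229 against 527 FPKM at 6 h. Wild type at 6 h thus had the lowest sums of all 3 types, and no marker was at 0. Between genotypes at 6 h, 1 B cell, 1 T cell and 3 erythroid markers were higher with a limma call, and at 90 min all 4 erythroid markers were higher at an unadjusted p under 0.05 with 0 calls. For 5 platelet markers, which include Pf4 and Ppbp, the sum was 188 and 172 FPKM in wild type and 109 and 108 FPKM in deficient spleen at 90 min. It was 134 and 99.6 against 159 FPKM at 6 h. All 5 had a lower mean log2 level in deficient spleen at 90 min and a higher one at 6 h, with 0 limma calls. The part of these cell types in the members' values was not tested.

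Over the 7 libraries, the members' patterns are described here by Pearson's r of log2(FPKM + 1) with no test, since all points share the same libraries and groups. Cxcl1 correlated with Cxcl5 (r = 0.971) and Cxcl2 (0.970), and Csf3 with Cxcl3 (0.922) and Cxcl2 (0.893). Csf3 and its receptor gene Csf3r ran opposite (-0.977). Csf1 followed Csf1r (0.863) more than any other member.

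Among 7855 other genes with a mean of at least 5 FPKM, the pattern most like that of Cxcl1 was that of Bcl2a1b, an anti-apoptotic gene (r = 0.989). For Cxcl2 it was Gpr18 (0.996), with Dusp2 (0.988) and Ptgs2 (0.987), the gene of inducible cyclooxygenase, next. Cxcl5 was most like Fas (0.987) and Ccl2 (0.986), the monocyte chemokine. Csf3 was most like Cd80 (0.988), Cxcl3 like Il2ra (0.974) and Csf2 like March3 (0.984). On the receptor side, Csf3r was most like Wdr91 (0.990), Csf2rb like Exoc7 (0.995) and Csf1r like Bcor (0.995), and Csf1 was most like Plpp3 (0.978).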

How the data were processed

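RNA-seq of spleen RNA on a BGISEQ-500 gave 7 libraries, grouped by their titles. The authors deposited FPKM values, 1 column per library with 2 decimals, per the file headers. The submitters' processing notes name HISAT, HISAT2 2.0.4, Bowtie2 and RSEM and the build GRCm38.p5, without roles. The library protocol names oligo-dT selection or rRNA depletion, without saying which. Counts were not used here.

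From the deposited FPKM, log2(FPKM + 1) was computed and tested in the 11378 of 17920 genes that averaged at least 1 FPKM, using limma 3.58.1 under R 4.3.3 (empirical Bayes with a trend, two-sided, Benjamini-Hochberg over all genes tested, threshold 0.05). The fit had 4 groups, with the spread taken from the 3 groups of 2, and genotype over both times was an additive fit with time. Fold changes on this scale understate changes of low genes, and standard errors are moderated ones. P-values measure the spread between these libraries only. Fragments were estimated from the steps of low FPKM values and the lengths of listed transcripts in the GENCODE annotation. Globin genes took 7.72% to 30.9% of the FPKM sum, which can shift other genes.

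The members, gene lists, naming rule and tests were chosen with earlier results of these data known. Named are the 10 members, listed genes past the threshold (up to 5 per list and comparison), any gene of the 2 pathway lists by level, and the genes most like each member. Nfkbiz, S100a8, S100a9, Camp, Elane, Mpo, Ngp, Cd68, Ubl4a, Gm44504, Hbb-b1 and the IL-17 genes are not covered by that rule and were picked with their values known. As a check of the code only, the tests were run on simulated libraries with known changes. Alternatives were a pseudocount of 0.1, other filters, quantile normalization, a common sum without globin genes, the replicate number as a block, fewer libraries and, added after seeing the data, a transcript length correction and crossed numbers.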

Additional observations from a re-analysis of the deposited data

How the results depend on the processing

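Of 713 alternative values of single members, 606 kept their direction and their side of the threshold, 78 became calls, 13 lost theirs (all in wild type over time) and 16 reversed. This tally holds the interaction for Csf1 only, so interaction values of the other members lie outside it. No reversed value in the tally was a call. Between genotypes at 90 min, 4 members passed when only the 4 libraries compared were fitted, and 0 to 4 when 1 library was left out. With time as covariate, leaving out 1 library gave 0 to 6 calls. At 6 h, 1 member passed with a pseudocount of 0.1 (Csf3), 1 with the transcript length trend removed (Csf3r) and 4 to 7 with 1 library left out. Over time in wild type, 0 passed with no filter and 2 with quantile normalization. Over time in GdX-deficient spleen leaving out 1 library gave 0 to 2, and in the interaction 0 to 1 (Csf1r, without wild-type replicate 2 at 6 h). These member counts stand here without the share of all genes at each setting, so they are no result about the members. The cause of these shifts was not tested.

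Over all genes tested, the calls between genotypes at 90 min ranged from 0 to 183 over the alternatives (2 as reported), at 6 h from 90 to 3383 (450), with time as covariate from 2 to 1674 (5) and over time in wild type from 450 to 2409 (1218). They ranged from 0 to 236 over time in GdX-deficient spleen (0) and from 0 to 238 in the interaction (8).

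The reversed values were these. With the length trend removed, Csf2 came to 0.016 at 90 min, 0.13 at 6 h and 0.062 with time as covariate, Csf1r to -0.15 at 90 min and Csf1 to -0.15 with time as covariate. With a common sum without globin genes, Csf2 came to 0.026 at 6 h. Leaving out 1 library, the 90 min difference ran from -0.72 to 0.16 for Csf2 and from -0.36 to 0.44 for Csf1r. With time as covariate it ran from -0.39 to 0.31 for Csf1 and from -0.39 to 0.046 for Csf2, and at 6 h from -0.14 to 0.010 for Csf2. Over time, Cxcl3 ran from -0.68 to 0.099 in wild type and from -1.71 to 0.011 in GdX-deficient spleen.

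The replicate numbers of the titles give no shared animal or batch. The differences between replicates 1 and 2 correlated at 0.768 between the wild-type groups, -0.120 between genotypes at 90 min and 0.0797 between the deficient 90 min and wild-type 6 h groups. With the replicate number as a block, 7 members and 29.7% of all genes passed between genotypes at 6 h, 5 and 20.6% over time in wild type and 1 (Cxcl1) and 0.325% over time in GdX-deficient spleen, where Csf1r came to 0.020, and 0 passed in the other 3 comparisons. With crossed numbers at 90 min, an alternative added after seeing the data, 0 members and 2 genes in all passed.

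Depth limits Cxcl3 and Csf2 most, whose lowest values rest on an estimated 6.03 and 6.86 fragments.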

Other observations

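The interleukin 17 genes Il17a and Il17f, whose products are known inducers of Cxcl1 and Csf3 in stromal cells, were too low to be tested and are given here because of their values. Il17f was listed at 1.61 and 4.30 FPKM in wild type at 6 h and at 0.04 FPKM in the GdX-deficient library, and between 0.09 and 0.26 FPKM in the 4 libraries at 90 min. Il17a was listed at 1.20 and 2.14 FPKM in wild type at 6 h, at 0 in the GdX-deficient library and between 0.04 and 0.13 FPKM at 90 min. The receptor gene Il17ra was present in all libraries, from 19.2 to 46.9 FPKM. Il17rc, a further receptor gene, stood at 1.13 and 0.98 FPKM in wild type and 0.33 and 0.58 FPKM in deficient spleen at 90 min. At 6 h it stood at 1.53 and 1.41 FPKM in wild type and 2.91 FPKM in the deficient library. Whether any of these genes bears on the members' values was not tested.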
